A study of Mus musculus with 13 samples.

Results

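The genes of sterol and fatty acid synthesis, with their SREBP regulators and a few sterol carriers, were followed through early reprogramming of mouse fibroblasts to pluripotency. The set holds 35 of the 24495 genes in the deposited read count table, taken by symbol, and all 35 were detected well enough to be tested. They fall into 7 genes of the mevalonate branch, 11 of the squalene and sterol branch, 5 regulators, 3 sterol carriers, 3 genes that build fatty acids and 6 elongases and desaturases. The set was drawn from these families and does not hold every enzyme of either pathway.

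Cells make cholesterol from acetyl-CoA. The mevalonate branch leads to farnesyl diphosphate, and the squalene and sterol branch closes and trims the ring system. Fatty acids are built from the same acetyl-CoA by Acly, Acaca and Fasn, then lengthened by elongases and given double bonds by desaturases. The transcription factors Srebf2 (mainly for sterol genes) and Srebf1 (mainly for fatty acid genes) are escorted from the endoplasmic reticulum by Scap when sterols are scarce, and Insig proteins hold them back when sterols are plentiful. Proliferating cells use both pathways to make membrane.

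The study asked how Tet2, a dioxygenase that oxidizes 5-methylcytosine in DNA, acts in reprogramming. All cells were primary mouse embryonic fibroblasts (MEFs) from embryonic day 12.5 on a V6.5 129XBI/6 background, lacking Tet2 and carrying rtTA with the doxycycline-inducible factors Oct4, Klf4, Sox2 and Myc (OKSM), and all were kept at 5% oxygen. At day 5 of reprogramming there were 3 libraries from cells given wild-type Tet2 in a pMXs retrovirus (Tet2-WT, replicates 1, 2 and 250), 4 from cells given a mutant Tet2 described as stalling (Tet2-E, replicates 1, 2, 100 and 250) and 3 from cells given the empty virus (pMXs, replicates 2, 100 and 250). These cells had been infected 2 times, seeded on growth-arrested feeder MEFs and grown in serum with LIF, the MEK inhibitor PD0325901 (1 µM), the GSK3 inhibitor CHIR99021 (3 µM) and doxycycline (2 µg/mL). The 3 libraries of untreated MEFs (replicates 1, 2 and 100) came from cells in fibroblast medium, and the labels leave unclear whether these carried the empty virus. The protocols describe neither sorting nor depletion of feeders, so the day 5 libraries are taken as mixed cultures.

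Total counts per library ran from 14052646 to 26265382, and the first principal component, which parts day 5 from untreated libraries, carried 82.8% of the variance. Tet2 RNA stood at 1176 to 1243 CPM (library-scaled counts) with Tet2-WT and at 581 to 1403 CPM with Tet2-E, replicate 100 being the lowest, against 39.1 to 58.8 CPM with pMXs and 37.8 to 48.3 CPM in untreated cells. The 18 fibroblast and mesenchymal markers summed to 19954 to 21499 CPM with Tet2-WT, 24669 to 25381 CPM with Tet2-E, 27216 to 30867 CPM with pMXs and 64351 to 66158 CPM in untreated cells. Differences between replicates exceeded counting error, and the labels do not say whether replicates were separate cultures, so the tests weigh the spread among these libraries, which may be technical. Libraries were prepared in 2 sets, and which library was in which set is not stated. Among the untreated libraries, replicate 100 had the lowest level for 29 of the 35 genes, against 41.3% of all genes tested, so results are also given without it where they depend on it.

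The sequence just upstream of 6 genes is shown because these enzymes moved in both directions within the same pathways. They are Hmgcs1, Mvd, Cyp51 and Msmo1, which fell by day 5, and Ebp and Fasn, which rose. Each line holds the 250 bases before the RefSeq start on the gene's own strand, in GRCm38.p6 coordinates, which differ from those of the mm9 build used for the counts. The GENCODE M21 annotation of GRCm38 places the outermost starts of Msmo1 (chr8:64733792) and Cyp51 (chr5:4104746) inside the printed stretches. By that annotation, part of each of these lines lies within the gene. Capitals mark a sterol regulatory element core (TCACNCCAC), CCAAT boxes (CCAAT or its reverse complement ATTGG) and GC boxes (GGGCGG or CCGCCC). The lines stand for Hmgcs1 at chr13:119690101-119690350 on the plus strand, and on the minus strand for Mvd at chr8:122443423-122443672, Cyp51 at chr5:4104698-4104947, Msmo1 at chr8:64733579-64733828, Ebp at chrX:8193513-8193762 and Fasn at chr11:120824548-120824797.
Hmgcs1: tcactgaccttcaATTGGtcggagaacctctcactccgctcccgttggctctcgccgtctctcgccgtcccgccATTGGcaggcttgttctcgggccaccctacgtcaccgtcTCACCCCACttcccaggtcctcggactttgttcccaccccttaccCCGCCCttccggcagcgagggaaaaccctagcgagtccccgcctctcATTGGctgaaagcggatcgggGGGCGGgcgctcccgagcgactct
Mvd: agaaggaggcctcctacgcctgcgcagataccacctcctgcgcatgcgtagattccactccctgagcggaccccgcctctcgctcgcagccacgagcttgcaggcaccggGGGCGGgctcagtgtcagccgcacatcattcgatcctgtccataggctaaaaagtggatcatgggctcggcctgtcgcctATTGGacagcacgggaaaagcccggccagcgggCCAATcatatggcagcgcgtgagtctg
Cyp51: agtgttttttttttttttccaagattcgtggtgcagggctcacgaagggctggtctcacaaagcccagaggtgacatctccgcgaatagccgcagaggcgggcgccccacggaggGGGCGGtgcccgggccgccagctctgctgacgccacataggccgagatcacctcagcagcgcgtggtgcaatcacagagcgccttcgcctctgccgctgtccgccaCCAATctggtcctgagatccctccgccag
Msmo1: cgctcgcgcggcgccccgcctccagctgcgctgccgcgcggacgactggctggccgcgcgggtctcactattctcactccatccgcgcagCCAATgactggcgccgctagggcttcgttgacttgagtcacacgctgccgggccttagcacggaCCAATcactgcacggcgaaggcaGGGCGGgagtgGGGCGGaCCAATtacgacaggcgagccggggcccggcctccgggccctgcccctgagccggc
Ebp: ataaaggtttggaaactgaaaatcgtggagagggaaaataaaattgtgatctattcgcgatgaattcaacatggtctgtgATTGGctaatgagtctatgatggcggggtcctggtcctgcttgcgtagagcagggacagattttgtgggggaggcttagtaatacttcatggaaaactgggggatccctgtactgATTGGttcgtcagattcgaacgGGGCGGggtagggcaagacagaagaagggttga
Fasn: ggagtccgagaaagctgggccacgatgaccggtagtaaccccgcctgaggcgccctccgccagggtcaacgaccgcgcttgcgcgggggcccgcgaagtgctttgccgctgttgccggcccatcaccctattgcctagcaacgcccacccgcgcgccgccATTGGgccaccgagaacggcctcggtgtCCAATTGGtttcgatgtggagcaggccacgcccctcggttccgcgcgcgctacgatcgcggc

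A RefSeq window from 250 bases before to 50 bases after the start was at hand for 27 of the 35 genes. Without one were Fads1, Fdps, Scd1, Scd2, Npc1, Fdft1, Sqle and Stard4. Searched on both strands, the sterol regulatory element core was found in 1 of the 15 sterol synthesis genes with a window (6.67%), which was Hmgcs1 with its first base 137 bases upstream of the start. It was found in 1.45% of the 17573 genes of the count table that have a window. A CCAAT box was found in 14 of the 15 sterol synthesis genes (93.3%) and in 3 of the 6 fatty acid genes with a window (50%), against 42% of all genes. A GC box was found in 14 of the 15 sterol genes (93.3%) and in 2 of the 6 fatty acid genes (33.3%), against 49.5% of all. An E-box (CACGTG) was found in 7 of the 27 genes (25.9%), against 9.13% of all. The median number of CpG pairs, where DNA methylation is placed, was 23 for sterol synthesis genes and 19 for fatty acid genes, against 14 for all genes. These matches describe the letters of the windows only. The 17573 genes also include genes too low to be tested here, whereas all 35 genes of the set were tested. The shares were not set against tested genes alone. Elements that depart from the exact letters searched were not counted or marked, so a gene without a match may still hold such an element. Ebp, which moved against the rest of its branch, has CCAAT boxes that begin 170 and 55 bases upstream and a GC box at 33.

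At day 5 with the empty virus, nearly all the sterol synthesis genes of the set were lower than in untreated MEFs. Of the dedicated genes of fatty acid synthesis, Fasn was higher, and Acaca was called higher only at the threshold (edgeR adjusted p = 0.0496). Of the 35 genes, 22 fell and 5 rose, and 8 did not pass (edgeR adjusted p under 0.05, adjusted over all 14607 genes tested). The background is high, since 35.0% of all genes fell and 35.0% rose. All 3 pMXs libraries lay below all 3 untreated ones for 20 of the 35 genes, where 35.9% of all genes did, and above them for 5, where 36.1% did. Sterol synthesis supplied 16 of the 22 genes that fell and 1 of the 5 that rose. The median log2 fold change was -0.87 for the 18 sterol synthesis genes, 0.04 for the 9 fatty acid genes and 0.00 for all genes tested. The day 5 cells also had doxycycline with the OKSM factors, the inhibitors, another medium and feeders. The parts of these in the differences from untreated cells cannot be told apart. In bulk RNA, fewer cells of a type and less RNA per cell cannot be told apart either. The heat map shows the 35 genes in every library.

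**Figure D1:**
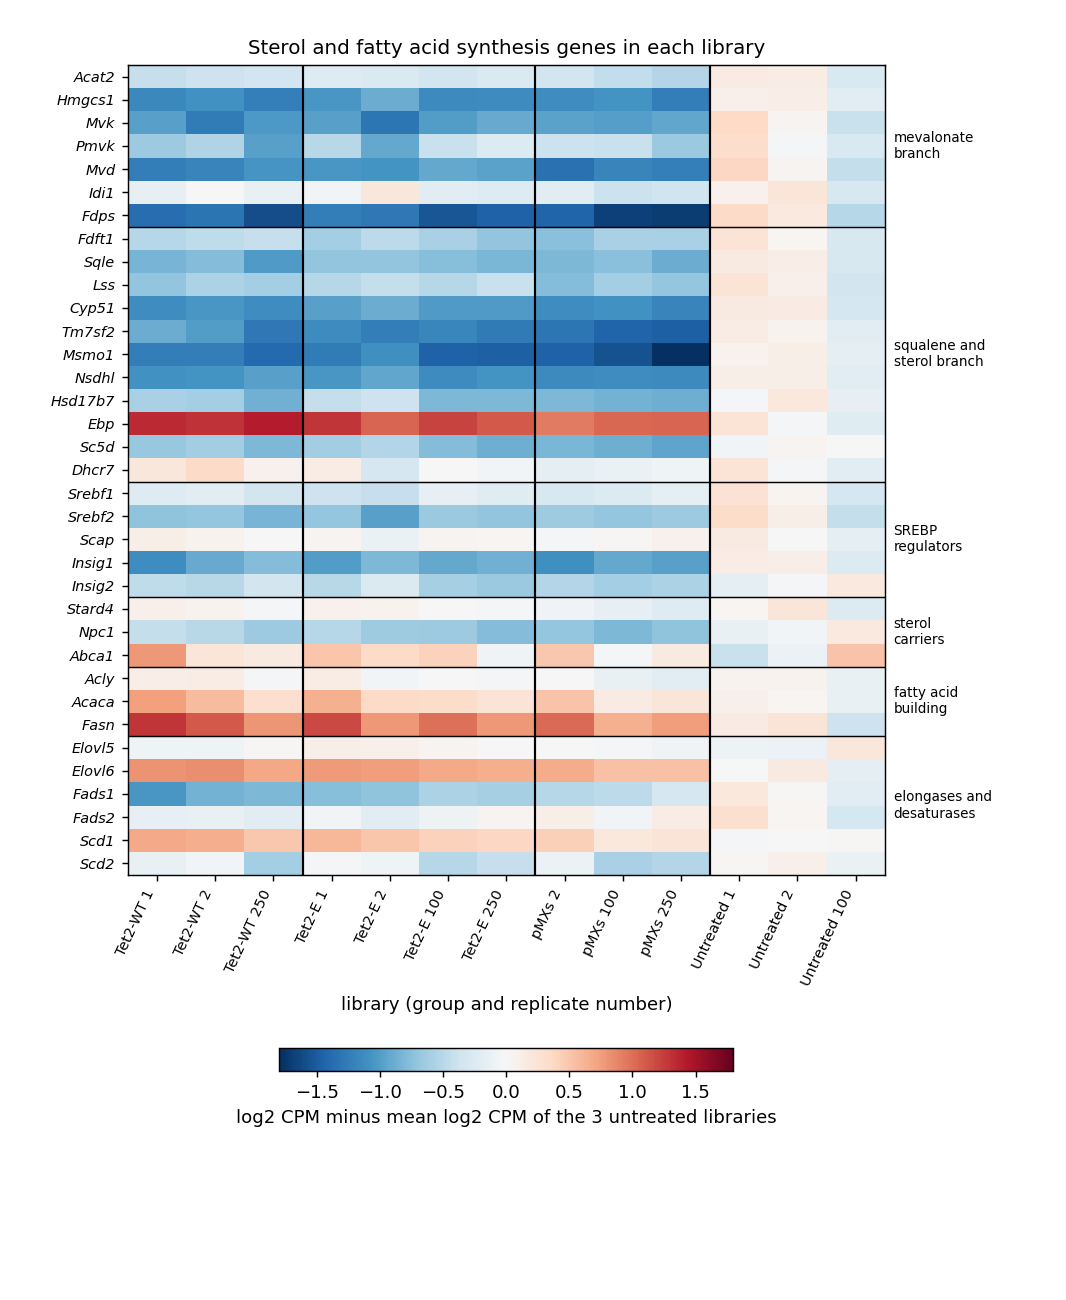
Level of each gene (rows, by role) in each of the 13 libraries (columns, by group and replicate number), as log2 CPM minus the mean log2 CPM of the 3 untreated libraries; blue is lower and red higher. The 2 sterol branches are blue across the 10 day 5 libraries apart from Ebp, Idi1 and Dhcr7, whereas Fasn, Elovl6 and Scd1 are red.

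All 7 genes of the mevalonate branch fell with pMXs (median log2 fold change -0.997). Fdps, which makes farnesyl diphosphate, had 18.3, 15.4 and 15.1 CPM in the pMXs libraries (in the order 2, 100, 250), against 62.9, 55.9 and 34.7 CPM in the untreated libraries (1, 2, 100). Every pMXs library lay below every untreated one, and Fdps had the largest change of the whole set (log2 fold change -1.66 ± 0.17 (SE), adjusted p = 6.29e-07). Mvd, the decarboxylase that yields isopentenyl diphosphate, had 14.5, 16.2 and 15.7 CPM with pMXs, against 47.6, 38.3 and 27.5 CPM in untreated cells. The groups did not overlap, although untreated replicate 100 lay well under the other two (-1.29 ± 0.15, adjusted p = 1.39e-06).

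Hmgcs1, which makes the HMG-CoA that enters the branch and was added to the named genes after its values were seen, had 148, 153 and 136 CPM with pMXs, against 342, 348 and 278 CPM in untreated cells. All 3 pMXs libraries held less than the lowest untreated library (-1.15 ± 0.09, adjusted p = 3.59e-08). Mvk, the first kinase, averaged 13.2 ± 0.306 CPM with pMXs and 26.2 ± 6.65 CPM in untreated cells (SD, n = 3 each; -0.997 ± 0.16, adjusted p = 3.47e-05). The remaining genes changed less. Acat2, a cytosolic thiolase, fell by 0.45 ± 0.10 on the log2 scale (adjusted p = 0.000815), and Pmvk, the second kinase, fell by 0.50 ± 0.18 (adjusted p = 0.0201). The isomerase Idi1 fell by 0.33 ± 0.13 (adjusted p = 0.0313), and its pMXs and untreated libraries overlapped.

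Of the 11 genes of the squalene and sterol branch, 9 fell, Ebp rose and Dhcr7 did not pass (median log2 fold change -0.85). Msmo1, a methylsterol oxidase, had 52.4, 48.8 and 40.0 CPM with pMXs, against 151, 155 and 128 CPM in untreated cells. The highest pMXs library held less than the lowest untreated one (-1.62 ± 0.12, adjusted p = 7.48e-09). Tm7sf2, a sterol reductase, had 5.33, 4.83 and 4.72 CPM with pMXs, against 14.4, 13.8 and 11.3 CPM in untreated cells. It too separated the groups (-1.41 ± 0.13, adjusted p = 1.28e-07). Cyp51, the sterol demethylase, was also added after its values were seen. It had 60.5, 61.8 and 57.7 CPM with pMXs, against 148, 146 and 106 CPM in untreated cells (-1.15 ± 0.10, adjusted p = 8.65e-08).

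The other falls in this branch ran from -1.14 to -0.65 on the log2 scale. Nsdhl, which acts with Msmo1 in removing methyl groups, changed by -1.14 ± 0.10, and Hsd17b7, the ketoreductase of the same steps, by -0.85 ± 0.13 (adjusted p = 4.44e-08 and 2.01e-05). The desaturase Sc5d changed by -0.88 ± 0.09 and the squalene epoxidase Sqle by -0.83 ± 0.10 (adjusted p = 3.93e-07 and 3.07e-06). Lss, which folds the epoxide into lanosterol, changed by -0.71 ± 0.11, and Fdft1, which makes squalene, by -0.65 ± 0.11 (adjusted p = 4.62e-05 and 0.00011). Dhcr7, which acts at the end of the path, averaged 22.4 ± 0.823 CPM with pMXs and 24.6 ± 3.91 CPM in untreated cells (SD, n = 3 each), a log2 difference of -0.14 with a 95% interval of -0.40 to 0.12 (adjusted p = 0.33).

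Ebp, the sterol isomerase that acts between these enzymes, moved the other way. It had 36.6, 39.3 and 39.7 CPM with pMXs, against 22.8, 18.6 and 16.5 CPM in untreated cells. Every pMXs library lay above every untreated one (0.99 ± 0.10, adjusted p = 5.41e-07), and the value stayed between 0.82 and 1.27 in all alternatives tried. Across all 10 day 5 libraries, Ebp was also the only one of the 18 sterol synthesis genes above all 3 untreated libraries, while 13 were below all of them, against 31.1% and 30.3% of all genes.

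**Figure D2:**
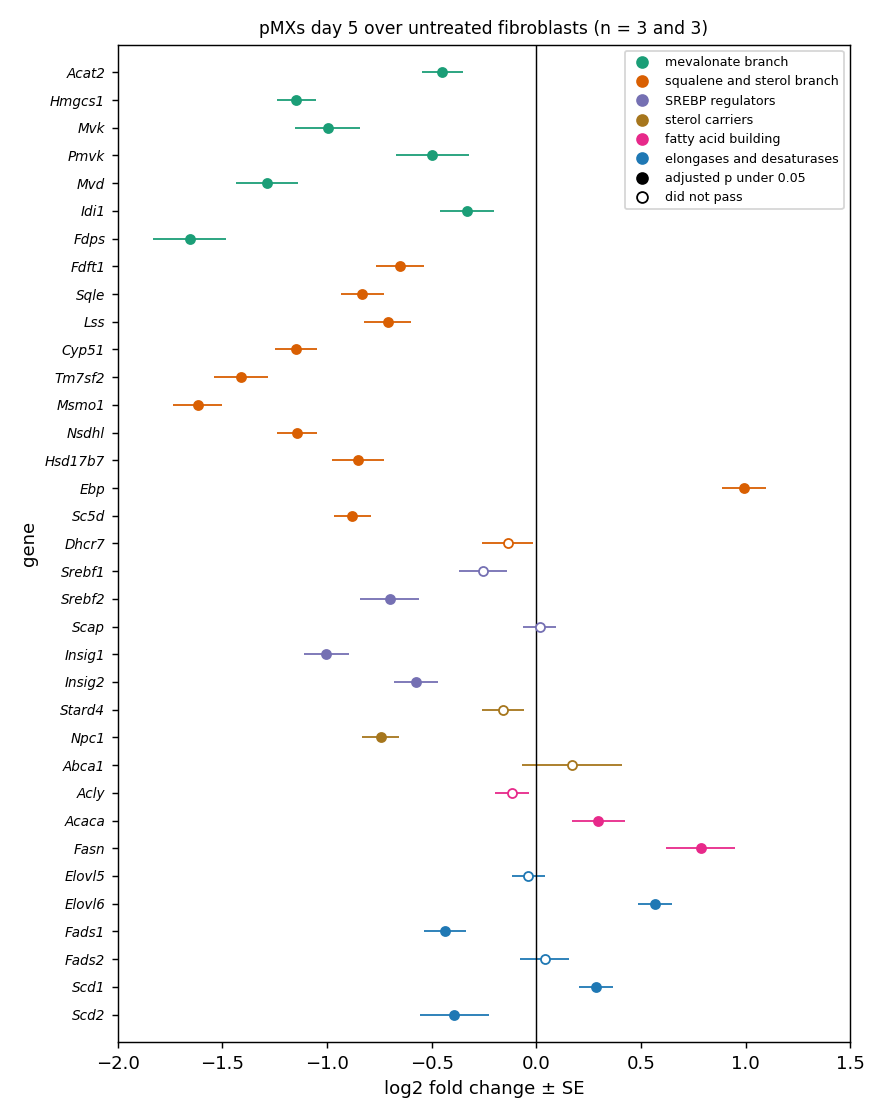
Log2 fold change of each gene, pMXs day 5 over untreated MEFs (x axis), with the standard error as a bar, coloured by role; filled points passed an adjusted p of 0.05 in edgeR (n = 3 libraries each). Both sterol branches lie left of 0 with the exception of Ebp at 0.99, and Fasn at 0.79 and Elovl6 at 0.57 lie right of it.

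Among the 5 regulators, 3 fell and 2 did not pass. Insig1, whose product retains Scap and is itself a classical SREBP target, had 29.5, 33.4 and 32.2 CPM with pMXs, against 69.3, 68.6 and 53.2 CPM in untreated cells. The groups did not overlap (-1.004 ± 0.11, adjusted p = 7.3e-07). Srebf2 had 111, 106 and 109 CPM with pMXs, against 217, 185 and 128 CPM in untreated cells. The untreated libraries were widely spread, and all were above the pMXs libraries (-0.70 ± 0.14, adjusted p = 0.000385). Insig2, the second retention protein, changed by -0.58 ± 0.11 (adjusted p = 0.00018). Srebf1 differed by -0.25 ± 0.12 (adjusted p = 0.061) and Scap by 0.02 with a 95% interval of -0.16 to 0.19, and neither passed. The counts cover RNA only, whereas SREBP activity is set largely by proteolysis of the protein.

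Of the 3 sterol carriers, Npc1, which moves cholesterol out of lysosomes, had 57.3, 53.1 and 56.1 CPM with pMXs, against 84.7, 89.7 and 104 CPM in untreated cells. The groups did not overlap (-0.74 ± 0.09, adjusted p = 2.7e-06), and here untreated replicate 100 was the highest. Stard4, a soluble sterol carrier, differed by -0.16 ± 0.10 (adjusted p = 0.162). Abca1, which exports cholesterol and answers to LXR receptors, ranged from 114 to 163 CPM with pMXs and from 88.1 to 166 CPM in untreated cells (0.17 ± 0.24, adjusted p = 0.54).

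Of the 3 genes that build fatty acids, Fasn and Acaca rose. Fasn, the fatty acid synthase, had 930, 712 and 772 CPM with pMXs, against 508, 538 and 353 CPM in untreated cells. All pMXs libraries were above all untreated ones (0.79 ± 0.17, adjusted p = 0.000661). Acaca, the acetyl-CoA carboxylase that makes malonyl-CoA, had 63.1, 49.0 and 51.2 CPM with pMXs, against 47.2, 45.4 and 40.1 CPM in untreated cells. The gap between the groups was small, and the call was at the threshold (0.30 ± 0.13, adjusted p = 0.0496). Acly, which supplies cytosolic acetyl-CoA, averaged 219 ± 14.5 CPM with pMXs and 237 ± 19.0 CPM in untreated cells (SD, n = 3 each; -0.12 ± 0.08, adjusted p = 0.211).

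The elongases and desaturases split, with 2 higher, 2 lower and 2 that did not pass. Elovl6, which lengthens the product of Fasn, had 134, 122 and 121 CPM with pMXs, against 85.3, 94.8 and 75.0 CPM in untreated cells. The groups were apart (0.57 ± 0.08, adjusted p = 1.89e-05). Scd1, which puts the first double bond into saturated chains, had 346, 294 and 304 CPM with pMXs, against 253, 258 and 262 CPM in untreated cells (0.29 ± 0.08, adjusted p = 0.00559). Fads1, a front-end desaturase for polyunsaturated fatty acids, had 119, 123 and 138 CPM with pMXs, against 195, 173 and 148 CPM in untreated cells. Here every pMXs library was lower (-0.44 ± 0.10, adjusted p = 0.00122). Scd2, the second stearoyl-CoA desaturase, had 1300, 935 and 966 CPM with pMXs, against 1422, 1485 and 1290 CPM in untreated cells. These groups overlapped (-0.39 ± 0.16, adjusted p = 0.0454). Elovl5, at -0.04, and Fads2, at 0.04, act on polyunsaturated chains and did not pass (adjusted p = 0.688 and 0.772). Both passed against the lone untreated library of replicate numbers 100 and 250, Elovl5 as lower (-0.24, adjusted p = 0.0238) and Fads2 as higher (0.36, adjusted p = 0.0197). In GRCm38 (GENCODE M21), Scd1 at chr19:44394455-44407709 and Scd2 at chr19:44293674-44306864 lie close together, and here Scd1 rose and Scd2 fell. Fads1 at chr19:10182888-10196877 and Fads2 at chr19:10062765-10101746 form another close pair, of which Fads1 fell and Fads2 did not pass.

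**Figure D3:**
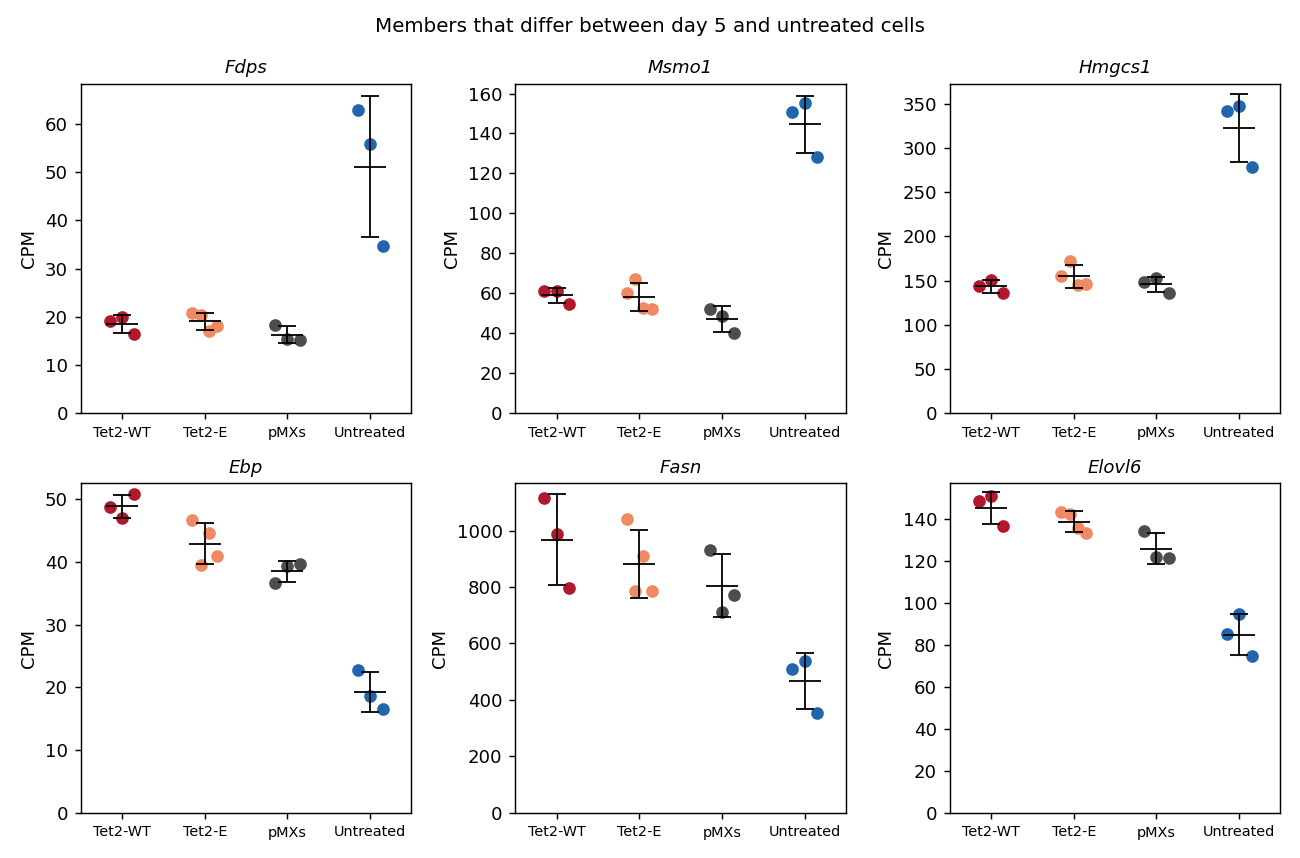
CPM of selected genes in each library by group; points are libraries, and the bars are the mean and SD (Tet2-WT, pMXs and untreated n = 3, Tet2-E n = 4). For Fdps, Msmo1 and Hmgcs1 all day 5 libraries lie below all untreated ones, and for Ebp, Fasn and Elovl6 all lie above them.

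Of the 27 genes called between pMXs and untreated MEFs, 19 passed in every alternative tried. Untreated replicate 100 stood at 74.7% (median) of the mean of the other untreated libraries for sterol synthesis genes and at 99.1% for all genes. Comparing pMXs with untreated cells within a pair of replicate numbers, 1 and 2 or 100 and 250, leaves 1 library in 1 of the groups, which is assumed to vary like the other groups. Untreated replicate 100 is the lone untreated library of its pair, and its low values were seen before this comparison was made. Against it alone, Acat2 (-0.19), Fads1 (-0.17), Idi1 (-0.07), Pmvk (-0.23), Scd1 (0.20) and Srebf2 (-0.24) did not pass (adjusted p = 0.101, 0.171, 0.607, 0.321, 0.0551 and 0.0770). Against that library Fdft1 (-0.28), Lss (-0.31), Mvk (-0.56), Mvd (-0.77) and Sqle (-0.53) still passed with a change smaller by more than 1.5 times. Without that library Srebf1 (-0.40, adjusted p = 0.00102) and Stard4 (-0.28, adjusted p = 0.00801) passed as lower, and Acaca (0.23, adjusted p = 0.163) and Scd2 (-0.45, adjusted p = 0.0571) did not pass.

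Acaca and Scd2 each passed in only 12 of 22 alternatives. Leaving out other single libraries also mattered for weak calls. Scd2 changed by -0.30 without pMXs replicate 100 (adjusted p = 0.159) and by -0.16 within replicate numbers 1 and 2, with 1 pMXs library (adjusted p = 0.124). Idi1 changed by -0.22 without untreated replicate 2 (adjusted p = 0.163), Pmvk by -0.32 without untreated replicate 1 (adjusted p = 0.122) and Acaca by 0.18 without pMXs replicate 2 (adjusted p = 0.243). With the replicate number as a block, Pmvk did not pass (-0.42, adjusted p = 0.0615). Some counts may also be shared with near copies or with genes annotated at the same place. In the GENCODE M21 annotation of GRCm38, stretches of 40 bases, the read length, occur in another gene for 41.3% of those in Acat2 (mostly Acat3), 31.9% in Acaca, 29% in Fdft1, 27.3% in Fdps and 26.2% in Idi1, so these values are uncertain. Exons of Fdps overlap Gm43738, which is absent from the count table, on the same strand over 77.4% of their length. Exons of Fdft1 also overlap Ctsb on the opposite strand over 20.9% of their length, and whether counting used strand is not stated.

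The culture's makeup moved in the same comparison. Of 18 fibroblast and mesenchymal markers, 17 fell with pMXs, and of 19 epithelial markers, 17 rose, their sum reaching 707 to 1074 CPM with pMXs, against 57.6 to 78.5 CPM in untreated cells. The 14 pluripotency markers summed to 336 to 403 CPM with pMXs, with Dppa2, Dppa4 and Dppa5a at 0 in all pMXs libraries, against 3.21 to 4.73 CPM in untreated cells. The 13 markers of adipocytes and their precursors, cells rich in Fasn and Scd1, summed to 183 to 197 CPM with pMXs, with Cidec, Retn and Lep at 0, against 187 to 238 CPM in untreated cells. Of their 7 tested members 1 rose and 5 fell. The part of these shifts in the changes of the lipid genes was not tested.

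The other lipid genes give the setting, and their lists, like the 35 genes themselves, are described by counts beside the background of 35.0% higher and 35.0% lower. In sterol uptake, esterification and transport, 12 of 16 tested genes fell and 3 rose with pMXs (median -0.60). The caveolin gene Cav1 had the largest fall, with 213 ± 23.6 CPM with pMXs and 1072 ± 10.0 CPM in untreated cells (SD, n = 3 each; log2 fold change -2.33, edgeR adjusted p under 0.05), followed by the lysosomal lipase Lipa (-1.21). Nceh1, a cholesteryl ester hydrolase (1.35), and the lysosomal membrane protein Scarb2 (0.56) had the largest rises. Of 10 tested LXR receptors and targets, 6 fell, Mylip (-1.89) and the phospholipid transfer protein Pltp (-1.45) the most, and the receptor gene Nr1h3 rose (0.69). Of 15 genes of SREBP escort, proteolysis and turnover, 7 fell and 3 rose. Fbxw7, which marks processed SREBP for destruction, rose (1.01), as did Mbtps2, the site-2 protease (0.79). Twist2, which also stands among the mesenchymal markers (-3.54), and the lamin gene Lmna (-0.89) fell the most.

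Of 14 tested genes of the isoprenoid side branches, which draw on the product of Fdps, 5 rose and 2 fell. Pdss1 of coenzyme Q synthesis (1.30) and Rabggtb of Rab prenylation (1.07) rose, and Icmt (-0.55) and Fnta (-0.46) of protein prenylation fell. Of 16 tested genes in a list around acetyl-CoA and NADPH supply, 4 rose and 6 fell. That list also holds genes that supply neither, such as Acacb and Mid1ip1. Acss1 (3.04) and G6pdx, the entry enzyme of the pentose phosphate path (0.69), rose, and Mid1ip1 (-0.44) and Acss2 (-0.43) fell. Acss1 was at low levels, with means of 2.70 CPM with pMXs and 0.314 CPM in untreated cells, against 133 and 82.1 CPM for G6pdx. The Acss1 change ran from 2.22 to 4.88 over the alternatives, so its size is uncertain. Of 15 other elongases, desaturases and acyl-CoA synthetases, 6 rose, with Acsl6 (1.94) and Elovl7 (1.28) in front, and 4 fell, with Fads3 (-1.34) and Hacd1 (-0.64) in front. Acsl6 was at low levels, with means of 1.63 CPM with pMXs and 0.431 CPM in untreated cells. Of 26 genes of glycerolipid and phospholipid synthesis, 7 rose, such as Pcyt1b (1.82) and Agpat4 (1.40), and 13 fell, such as Chpt1 (-1.20) and Dgat1 (-0.73).

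Of 21 tested genes of fatty acid oxidation, 12 fell and 1 rose (median -0.45). Pdk4, the kinase that turns off pyruvate dehydrogenase (-3.33), and the receptor gene Ppara (-2.25) fell the most, and the isomerase Eci1 rose (0.36). Ppara was at low levels, with means of 0.334 CPM with pMXs and 1.55 CPM in untreated cells. Of 25 cell cycle genes, 24 rose (median 1.27), among them Aurka (1.88) and Rrm2 (1.68), and E2f1 fell (-0.39). All changes called in these lists passed in edgeR at an adjusted p under 0.05, and of those named, Hacd1 (-0.29, adjusted p = 0.312), Mid1ip1 (-0.18, adjusted p = 0.157) and E2f1 (-0.16, adjusted p = 0.220) did not pass within replicate numbers 100 and 250, nor did Nr1h3 within 1 and 2 (0.51, adjusted p = 0.111), where pMXs has 1 library. Hacd1 changed by -0.41 without untreated replicate 1 (adjusted p = 0.117).

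With Tet2-WT against pMXs, 2 of the 35 rose, Ebp and Scd1, and 1 fell, Fads1, where 6.01% of all genes rose and 6.52% fell. The median log2 fold change was 0.14 over the 35 genes and 0.00 over all genes. At an unadjusted p under 0.05 there were 9, where all genes gave 25.2%. All Tet2-WT libraries lay above all pMXs libraries for 13 of the 35 genes, where 17.7% of all genes did, and below them for 2, where 16.9% did. Tet2-WT and Tet2-E were set against the same pMXs libraries. Tet2-WT holds replicates 1, 2 and 250 and pMXs holds 2, 100 and 250, so the pairs of replicate numbers are shared unevenly. Within Tet2-E, replicates 1 and 2 lay above 100 and 250 for 18 of the 35 genes. With the replicate number as a block, some differences were nearer 0, such as Fdps (0.19 to 0.014), and others further away, such as Mvk (-0.13 to -0.25). The part of the uneven pairs in these counts was not tested.

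Fads1 fell below a level already reduced at day 5. It had 82.5, 94.4 and 97.8 CPM in the Tet2-WT libraries (in the order 1, 2, 250), against 119, 123 and 138 CPM in the pMXs libraries. All Tet2-WT libraries were below all pMXs libraries (log2 fold change -0.47 ± 0.10, adjusted p = 0.00632), and the call held in every alternative, from -0.52 to -0.40. The 4 Tet2-E libraries had 100, 103, 115 and 113 CPM, which is below every pMXs library and above every Tet2-WT library. Neither step passed on its own, at -0.23 ± 0.09 for Tet2-E against pMXs (adjusted p = 0.449) and -0.24 ± 0.10 for Tet2-WT against Tet2-E (adjusted p = 0.222).

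Ebp and Scd1 rose further above the level they had reached with pMXs. Ebp had 48.7, 47.1 and 50.8 CPM with Tet2-WT, 46.7, 39.5, 44.6 and 41.0 CPM with Tet2-E and 36.6, 39.3 and 39.7 CPM with pMXs. The Tet2-WT libraries were above all others, and those of Tet2-E overlapped pMXs. The change with Tet2-WT was 0.34 ± 0.10 (adjusted p = 0.0358), that with Tet2-E was 0.16 ± 0.09 (adjusted p = 0.646), and Tet2-WT minus Tet2-E was 0.18 ± 0.09 (adjusted p = 0.37). The call for Ebp was lost with the replicate number as a block (0.29, adjusted p = 0.0634) and without any 1 of the 6 libraries compared (adjusted p between 0.0716 and 0.110). Within replicate numbers 1 and 2, with 1 pMXs library, the difference was 0.39, and within 100 and 250, with 1 Tet2-WT library, it was 0.36, both no smaller than over all libraries (adjusted p = 0.0738 and 0.0752).

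Scd1 had 412, 407 and 362 CPM with Tet2-WT, 391, 363, 344 and 334 CPM with Tet2-E and 346, 294 and 304 CPM with pMXs. The lowest Tet2-WT library was above the highest pMXs library, and Tet2-E lay across the gap. The change with Tet2-WT was 0.32 ± 0.08 (adjusted p = 0.0158), that with Tet2-E was 0.19 ± 0.08 (adjusted p = 0.456), and Tet2-WT minus Tet2-E was 0.14 ± 0.08, short of the threshold (adjusted p = 0.437). The call was lost without Tet2-WT replicate 1 or 2 (adjusted p = 0.0804 and 0.0736) and without pMXs replicate 100 or 250 (adjusted p = 0.0876 and 0.0763). Against the lone pMXs library of numbers 1 and 2 the difference was 0.25, and for the lone Tet2-WT library of numbers 100 and 250 it was 0.27 (adjusted p = 0.0978 and 0.0537).

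**Figure D4:**
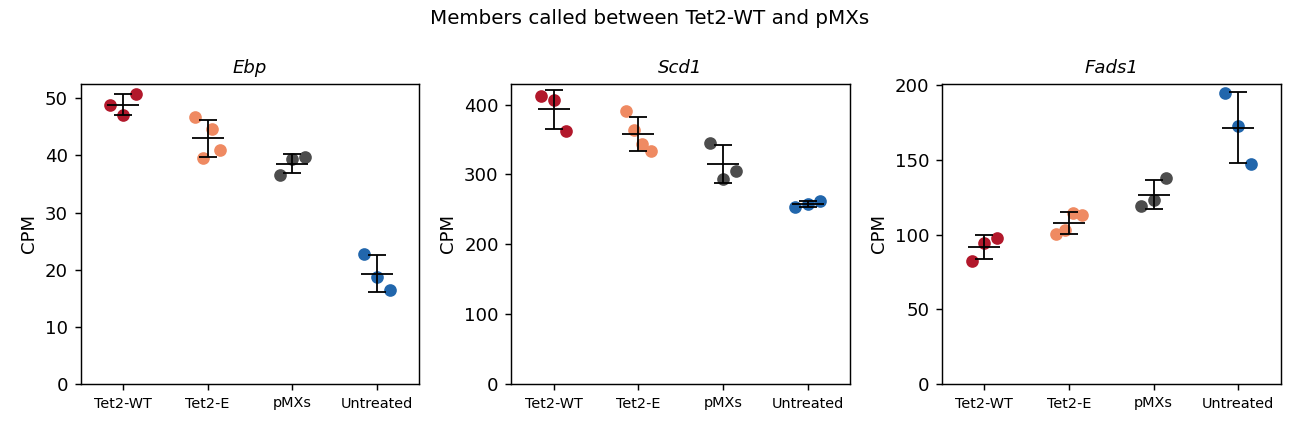
CPM of Ebp, Scd1 and Fads1 in each library by group; points are libraries, and the bars are the mean and SD (Tet2-WT, pMXs and untreated n = 3, Tet2-E n = 4). For each gene the group means order from Tet2-WT over Tet2-E and pMXs to untreated MEFs, falling for Ebp and Scd1 and rising for Fads1.

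Among the sterol genes with the largest falls by day 5, differences with Tet2-WT ran from near 0 for Hmgcs1 and Cyp51 to about the size of the called rises for Msmo1 and Tm7sf2, and none passed. Hmgcs1 had 143, 151 and 136 CPM with Tet2-WT, against 148, 153 and 136 CPM with pMXs, a log2 difference of -0.02 with a 95% interval of -0.22 to 0.18. For Cyp51 the difference was 0.04 (interval -0.18 to 0.25), for Fdps 0.19 (-0.19 to 0.57) and for Mvd 0.09 (-0.23 to 0.41). Msmo1 had 61.1, 61.1 and 54.5 CPM with Tet2-WT, against 52.4, 48.8 and 40.0 CPM with pMXs. Its libraries did not overlap, but it did not pass (0.32 ± 0.11, adjusted p = 0.083). It passed with the replicate number as a block (0.27, adjusted p = 0.0410) and with a term for the pair of replicate numbers (0.24, adjusted p = 0.0482). Dhcr7 (0.34, adjusted p = 0.0846) passed in a fit of the 2 groups alone (adjusted p = 0.0211) and without untreated replicate 1 or 100 (adjusted p = 0.0478 and 0.0473), and Tm7sf2, whose libraries did not overlap either (0.35, adjusted p = 0.107), passed without Tet2-WT replicate 250 (0.45, adjusted p = 0.0467).

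The regulators gave small differences with Tet2-WT, which were -0.09 for Srebf2, -0.02 for Srebf1, 0.03 for Scap, 0.06 for Insig1 and 0.14 for Insig2, with no adjusted p under 0.463. Fasn had 1117, 989 and 798 CPM with Tet2-WT, against 930, 712 and 772 CPM with pMXs. The libraries overlapped (0.27 ± 0.16, adjusted p = 0.351). The Fasn difference was 0.13 with the replicate number as a block and 0.16 with a term for the pair of replicate numbers. It was 0.15 without Tet2-WT replicate 1 and ran from 0.11 to 0.39 over all alternatives. Elovl6 differed by 0.21 (adjusted p = 0.117), Acly by 0.19 (adjusted p = 0.15) and Npc1 by 0.21 (adjusted p = 0.148), none of which passed. Over the 35 genes, 26 differences were positive and 9 negative, and 25 had a 95% interval wholly within 0.5 of 0 on the log2 scale.

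Markers moved with Tet2-WT as well. The 13 macrophage markers summed to 214 to 311 CPM with Tet2-WT, with Adgre1 and Tyrobp at 0, against 82.5 to 96.0 CPM with pMXs, with Adgre1, Ptprc, Cd53, Tyrobp and Aif1 at 0, and 4 of 7 tested rose. Of the 18 fibroblast and mesenchymal markers, 9 fell and 2 rose. The 13 markers of adipocytes and their precursors summed to 189 to 194 CPM with Tet2-WT, with Adipoq and Retn at 0, against 183 to 197 CPM with pMXs, and 2 of 7 tested rose and 1 fell. The 14 pluripotency markers summed to 501 to 584 CPM with Tet2-WT, against 336 to 403 CPM with pMXs. Of their 9 tested members, 2 rose and 2 fell. The 19 epithelial markers summed to 732 to 1361 CPM with Tet2-WT, against 707 to 1074 CPM with pMXs, and 2 rose. The part of these shifts in the values of Ebp, Scd1 and Fads1 was not tested.

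The other lists are again described by counts, beside 6.01% of all genes higher and 6.52% lower with Tet2-WT against pMXs. Genes named here were picked for the largest changes in their list, or the smallest p where none passed. No list was tested as a whole. Lpin1, the phosphatidate phosphatase, averaged 72.9 ± 2.71 CPM with Tet2-WT and 48.1 ± 0.864 CPM with pMXs (SD, n = 3 each; 0.60 ± 0.08, adjusted p = 0.000102), and Dgat2, which completes triglycerides, rose by 0.70 (adjusted p = 0.016). With 1 further gene, they were 3 of 26 in glycerolipid and phospholipid synthesis, and none fell. G6pdx averaged 187 ± 1.38 CPM with Tet2-WT and 133 ± 3.61 CPM with pMXs (0.49 ± 0.06, adjusted p = 0.000134). It was 1 of 4 that rose among 16 tested genes in the list around acetyl-CoA and NADPH supply. Me2 also rose (0.56, adjusted p = 0.00162), and Acacb fell (-0.57, adjusted p = 0.0322). In sterol uptake, esterification and transport 2 of 16 rose, Nceh1 (0.56, adjusted p = 0.00224) and Gramd1b (0.53, adjusted p = 0.0125), and 2 fell, the lipoprotein receptor gene Vldlr (-0.58, adjusted p = 0.000667) and Cav1 (-0.38, adjusted p = 0.0311).

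Among 15 genes of SREBP escort, proteolysis and turnover 3 rose, among them Twist2 (0.42, adjusted p = 0.0482). Of 15 other elongases, desaturases and acyl-CoA synthetases 3 rose, led by Degs1 (0.53, adjusted p = 0.00445) and Acsl5 (0.46, adjusted p = 0.000616), and none fell. Of 21 fatty acid oxidation genes 3 rose, among them Acadl (0.34, adjusted p = 0.0285). Of 10 LXR receptors and targets Pltp fell (-0.44, adjusted p = 0.0469), and of 25 cell cycle genes E2f1 rose (0.35, adjusted p = 0.0127). Of 14 isoprenoid genes, Coq2 had the smallest p, which did not pass (0.22, adjusted p = 0.0586). Within 1 of the pairs of replicate numbers, where Tet2-WT or pMXs has 1 library, the change was smaller by more than 1.5 times for Dgat2 (0.25), Twist2 (0.21), Cav1 (-0.20) and Pltp (-0.26), with adjusted p = 0.433, 0.593, 0.352 and 0.409, which rest on that library. These 4 calls, and those of Acacb, Acadl, E2f1 and Gramd1b, were each lost without at least 1 of the compared libraries, whereas Lpin1, G6pdx, Me2, Nceh1, Vldlr, Degs1 and Acsl5 passed in every alternative. With the replicate number as a block, Pltp (-0.43, adjusted p = 0.0734) and Twist2 (0.38, adjusted p = 0.0904) did not pass.

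With Tet2-E against pMXs none of the 35 genes passed, where 0.0479% of all genes did. At an unadjusted p under 0.05 edgeR gave 3 of the 35, Msmo1 (0.30), Fads1 (-0.23) and Scd1 (0.19), where all genes gave 9.33%, and DESeq2 also called none after adjustment. The count was 0 in every alternative, also without Tet2-E replicate 100, the library with the least Tet2. The smallest adjusted p was 0.393, for Msmo1, which had 60.0, 67.1, 52.6 and 52.2 CPM with Tet2-E, against 52.4, 48.8 and 40.0 CPM with pMXs. Those groups overlapped narrowly. The median log2 difference was 0.10 over the 35 genes and 0.00 over all genes, with 28 positive and 7 negative. For 29 of the 35 the 95% interval lay within 0.5 of 0, so larger changes were outside the intervals for these genes. Fasn had 1041, 787, 909 and 786 CPM with Tet2-E and lay across the pMXs range (0.13 ± 0.15, adjusted p = 0.844). In the lists around them, Lpin1 came nearest to passing (0.36, adjusted p = 0.0857). It passed with a term for the pair of replicate numbers (0.35, adjusted p = 0.0304), in DESeq2 (0.36, adjusted p = 0.00185) and without untreated replicate 100 (adjusted p = 0.0383), and G6pdx (0.20, adjusted p = 0.256) passed in DESeq2 (adjusted p = 0.0440).

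Between Tet2-WT and Tet2-E none of the 35 genes passed either, where 4.62% of all genes did. At an unadjusted p under 0.05 edgeR gave Fads1 (-0.24) and Dhcr7 (0.25), where all genes gave 15.6%, and DESeq2 called none after adjustment. Dhcr7 had 28.1, 31.0 and 25.7 CPM with Tet2-WT, against 26.8, 19.9, 24.6 and 23.5 CPM with Tet2-E. Its groups overlapped, since Tet2-E replicate 1 was above Tet2-WT replicate 250 (adjusted p = 0.277). The median log2 difference was 0.00 over the 35 genes, and 33 of 35 intervals lay within 0.5 of 0. In the lists around them, Nceh1 (0.40, adjusted p = 0.0239), G6pdx (0.29, adjusted p = 0.00813) and Cpt2 (0.28, adjusted p = 0.018) were higher with Tet2-WT, and Vldlr was lower (-0.46, adjusted p = 0.00545, and -0.27 with adjusted p = 0.320 within replicate numbers 100 and 250, where Tet2-WT has 1 library). Without Tet2-WT replicate 1, Nceh1 (0.35, adjusted p = 0.141) and Cpt2 (0.25, adjusted p = 0.120) did not pass.

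**Figure D5:**
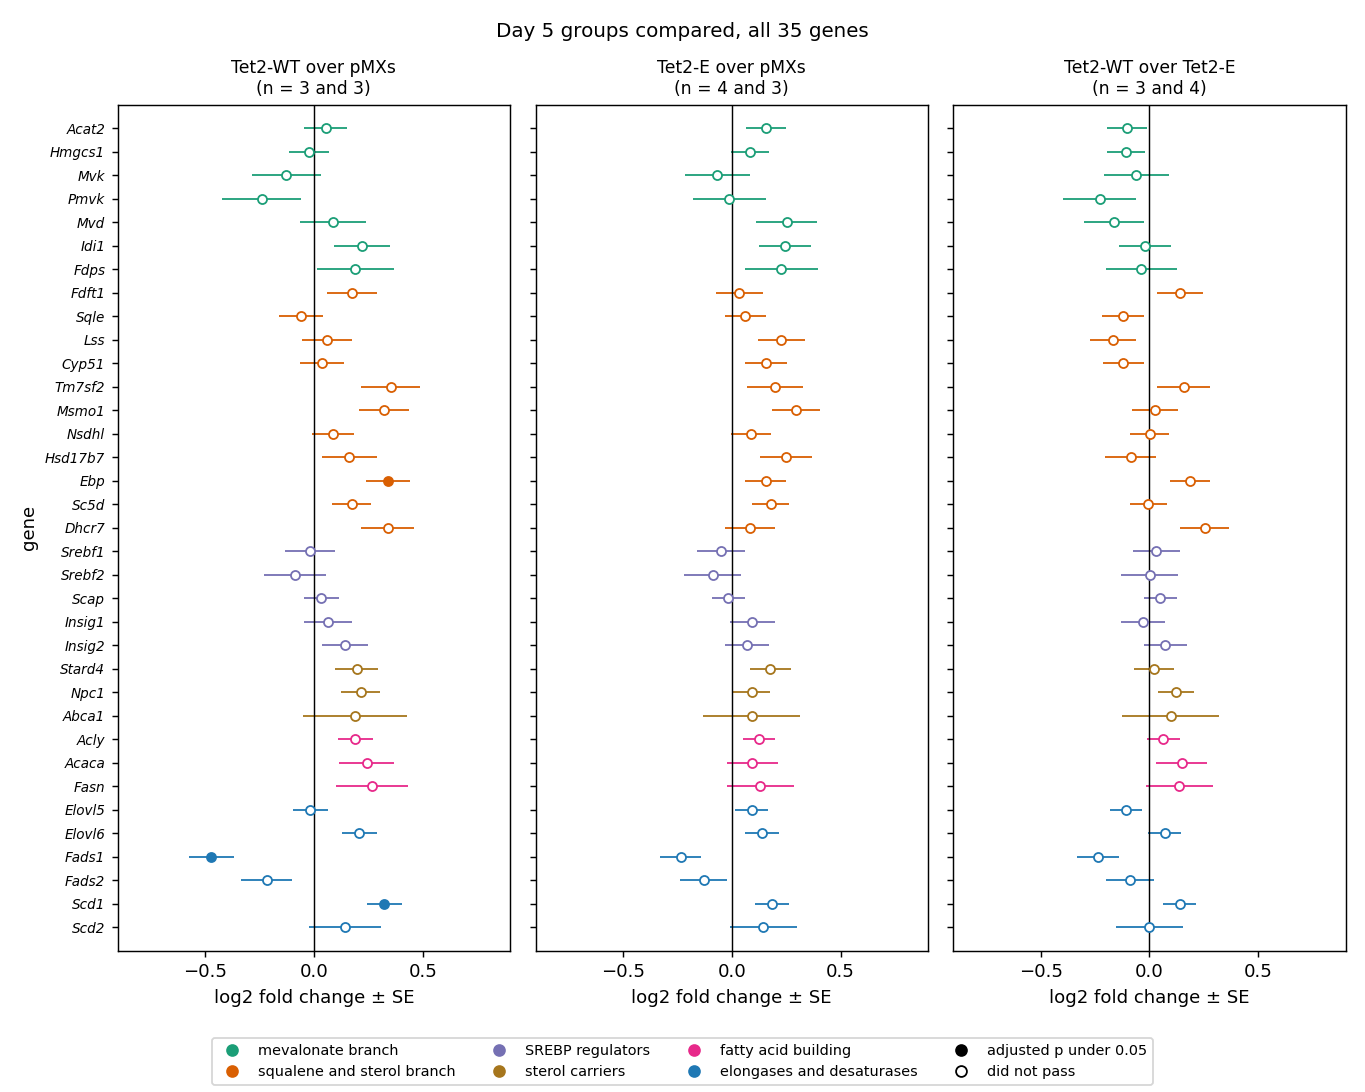
Log2 fold change of each gene (x axis) with its standard error for Tet2-WT over pMXs, Tet2-E over pMXs and Tet2-WT over Tet2-E; filled points passed an adjusted p of 0.05 in edgeR (Tet2-WT and pMXs n = 3, Tet2-E n = 4). Ebp, Scd1 and Fads1 in the first panel are the only filled points.

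The genes of the set also varied among replicates at day 5. Within Tet2-E, replicates 1 and 2 both lay above replicates 100 and 250 for 18 of the 35 genes, against 24.7% of all genes, and below for 4, against 24.3% of all genes. Scd2 shows this split, with 1360, 1325, 978 and 1052 CPM in Tet2-E replicates 1, 2, 100 and 250. Whether the pairs of numbers mark the 2 preparation sets is not stated. After group means were taken out over the 10 day 5 libraries, the genes closest to the mean of the 18 sterol synthesis genes were Slc45a3, Smpdl3a, Plaur, Zfp691 and Nupr1, with Pearson r of 0.993, 0.976, 0.975, 0.973 and 0.969, the highest among 10714 genes with a mean of at least 5 CPM. Sterol genes themselves ranged from 0.88 for Sqle and 0.83 for Fdps to -0.59 for Mvk and -0.75 for Mvd against the mean of the others. These libraries share the pairs of replicate numbers, and the values describe them only.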

How the data were processed

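RNA-seq was made from stranded mRNA libraries in 13 samples, per the labels' protocols. The deposited table holds unnormalized counts for each gene. The submitters' processing notes name STAR 2.6.1a, mm9 and featureCounts 1.6.2, and the strand setting is not given in the sources used here. Total counts ran from 14052646 to 26265382, and the chi-square between replicates, divided by its degrees of freedom, was 6.3 to 40.9, so depth was not the main limit for well expressed genes.

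Counts were analysed with edgeR 4.0.16 in R 4.3.3. Genes passing filterByExpr (count minimum 10, total minimum 15) numbered 14607. After TMM scaling, all 4 comparisons were contrasts of 1 robust quasi-likelihood model with group means, with Benjamini-Hochberg adjustment over all genes tested and a threshold of 0.05. The standard error is the absolute log2 fold change divided by the square root of F, and CPM use the TMM-scaled library size. The procedure was also run on simulated counts with known changes in Tet2-WT and the same spread for every gene. Those counts held neither pairs of replicate numbers nor an outlying library, so the run cannot speak to these features of the data.

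Each result was also computed with RLE scaling, with DESeq2 1.42.0, with all genes kept or those of at least 1 CPM in 3 libraries, the replicate number as a block, a term for the pair of replicate numbers (1 and 2, or 100 and 250), a fit of only the pair of groups, and dropping each library in turn. Contrasts within each pair of numbers were added after seeing the data; where they leave a group 1 library, its spread is taken from the other groups. After group means were removed, the correlation over genes was 0.12 to 0.34 for day 5 libraries sharing a number, 0.08 to 0.36 for the other number of the pair and -0.42 to -0.05 for opposite pairs. The numbers thus link day 5 libraries, and not the untreated ones (-0.04 to 0.17).

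The members, the gene lists and the tests were chosen with earlier results of these data known. Values in every library are given for members called between day 5 groups and for the 2 largest called changes between pMXs and untreated cells in each role group. From each further list, up to 2 genes that rose and 2 that fell most at 1 CPM or more are named, or the smallest p where none passed; some genes that this rule would name are not reported here. Keratinocyte, endothelial and skeletal muscle markers were also summed. Promoter windows came from RefSeq (GRCm38.p6) and exons from GENCODE M21.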

Additional observations from a re-analysis of the deposited data

Results flagged for a closer look

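In groups of 4 libraries, where 1 library far from the rest can be recognised by Dixon's test, 2 genes had such a library, and it was Tet2-E replicate 2 in both. Srebf2 stood at 87.7 CPM there, against 106 to 109 CPM in the other Tet2-E libraries, and Scap at 106 CPM, against 118 to 119 CPM. Such a test picks about 1 group in 20 by chance, and 35 groups of Tet2-E libraries were examined.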

How the results depend on the processing

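The count of the 35 genes that fell with pMXs against untreated cells stayed between 18 and 23, and of those that rose between 4 and 5. With Tet2-WT against pMXs, Fads1 fell in every alternative, whereas the count that rose ran from 0 to 3 when single libraries were left out and was 0 within replicate numbers 1 and 2 and 0 within 100 and 250, where pMXs or Tet2-WT has 1 library, so that these counts say little about stability. The count of genes called over the whole table with Tet2-WT against pMXs ran from 1097 to 2177 without single libraries, against 1830. With Tet2-E against pMXs it was 7, and 140 in DESeq2, 17 without a filter, 93 with the replicate block, 152 with a term for the pair of replicate numbers, 0 in a fit of the 2 groups alone, 104 and 83 within the pairs of numbers, and 1 to 50 without single libraries, the highest without Tet2-E replicate 100. Between Tet2-WT and Tet2-E it was 675, and 1052 with the term for the pair, and 335 to 893 without single libraries. The cause of these differences was not tested. The replicate block changed the calls of Ebp, Msmo1, Pmvk, Pltp and Twist2 as given above, took Agpat4 past the threshold between Tet2-WT and Tet2-E (0.25, adjusted p = 0.0386) and changed no other call among the genes named here. Under it 1904 genes were called with Tet2-WT against pMXs. Against untreated cells, Elovl5 (-0.04) ran from -0.091 to 0.069 without single libraries and was 0.092 within numbers 1 and 2 and -0.24 within 100 and 250, where it passed (adjusted p = 0.0238). Fads2 (0.04) ran from -0.11 to 0.19 and was -0.053 within 1 and 2 and 0.36 within 100 and 250, where it also passed (adjusted p = 0.0197). Within numbers 100 and 250, Srebf1 turned to 0.12 and Stard4 to 0.066. Among genes that passed in no setting, the sign also turned in some setting for 3 of 4 with pMXs, 11 of 29 with Tet2-WT against pMXs, 9 of 35 with Tet2-E and 19 of 35 between Tet2-WT and Tet2-E. RNA from feeder cells was not told apart from that of the reprogramming cells.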

Other observations

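Markers of cells not named above gave these sums. The 12 keratinocyte markers summed to 12.1 to 25.4 CPM with Tet2-WT, 7.76 to 15.3 CPM with Tet2-E, 7.62 to 10.6 CPM with pMXs and 3.89 to 5.39 CPM in untreated cells. The 8 endothelial markers summed to 78.6 to 88.5 CPM with Tet2-WT, 81.8 to 91.8 CPM with Tet2-E, 76.7 to 89.7 CPM with pMXs and 25.0 to 29.3 CPM in untreated cells. The 8 skeletal muscle markers summed to 28.4 to 37.2 CPM with Tet2-WT, 28.1 to 41.2 CPM with Tet2-E, 27.1 to 34.2 CPM with pMXs and 158 to 187 CPM in untreated cells. Their part in the lipid gene values was not tested.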
